A study of Mus musculus with 32 samples.

Results

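Aminoacyl-tRNA synthetases load each transfer RNA (tRNA) with its amino acid and so supply every ribosome with building blocks. A mammalian cell keeps separate sets of these enzymes for the cytosol and for the mitochondrial matrix, both encoded in the nucleus. Genes of the cytosolic set are known targets of the amino acid response, in which the transcription factor ATF4 raises transcription when uncharged tRNA accumulates or when translation initiation is restrained. The members described here are 36 genes chosen by name from the 35275 genes of the deposited table: 20 cytosolic enzymes and 16 mitochondrial enzymes, whose names end in 2. All 36 were found and all passed the filter on low counts, with at least 27 reads in any library. Gars and Kars, the glycine and lysine enzymes, serve both compartments from one gene each and are counted here with the cytosolic set.

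Whole livers from 32 mice were sequenced for polyadenylated RNA, 4 animals in each of 8 groups. All were C57BL/6 males, 16 weeks old. Wild-type mice (WT) and Fatp2-/- mice (KO), which have a disrupted fatty acid transport protein 2 gene (Slc27a2), were given a ketogenic diet (KD) or its control-ketogenic diet (CD) from 12 weeks of age. Mice of each kind were fasted for 4 h or for 24 h before the liver was taken. No batch is named in the labels, and how the Fatp2 gene was disrupted is not given in the sources used here. Each group is written below as genotype, diet and fast (WT KD 4 h), and r1 to r4 only name its animals.

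Total counts per library ranged from 13406678 to 24700310. Levels are given as CPM, read counts divided by a normalised library size, and comparisons between genes use FPKM, which also divides by gene length. Slc27a2 lay between 905 and 2230 CPM in WT libraries and between 121 and 318 CPM in KO libraries, so transcript remained in the KO livers. Albumin and the other hepatocyte markers summed to between 29600 and 77500 CPM over all groups. Transcripts of skeletal muscle (Acta1 at 10 CPM or more) were present in 4 libraries, WT CD 24 h r1, KO CD 24 h r1 and r2, and KO KD 4 h r4. KO CD 24 h r4 and KO KD 24 h r4 lay nearer to the other diet on a score from 66 diet-responsive genes that left out the synthetases. The genes and the scale of this score were taken from the WT libraries, so it is no check on those libraries. In bulk liver, fewer cells of a type and less RNA per cell cannot be told apart.

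A gene was called higher or lower when its edgeR quasi-likelihood test gave a Benjamini-Hochberg adjusted p under 0.05 over all 14438 genes tested. Fold changes are log2 values ± standard error (SE) from that fit, with n = 4 in each group. The share of all genes called in the same direction is given beside each count of synthetases, as the background against which to read it.

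Because several cytosolic synthetases moved together with diet, the promoters of the members were searched for TGATGNAA, the core of the C/EBP-ATF response element to which ATF4 binds. RefSeq (GRCm38.p6) gave a promoter, 250 bases before to 50 bases after the annotated start, for 13 cytosolic and 14 mitochondrial members. The others were Cars, Hars, Lars, Nars, Rars, Vars, Wars, Hars2 and Pars2. Searched on both strands, the 8 letters were present in 5 of the 13 cytosolic promoters (Aars, Gars, Iars, Tars and Yars) and in 0 of the 14 mitochondrial ones. They were present in 1304 of all 32851 promoters, or 3.97%. The 5 promoters with a match are shown from 150 bases before to 20 bases after the start, on the gene's strand, with the matched letters in capitals, so that each copy can be read in its place. The match began at position −15 in Tars, −30 in Gars, 4 in Yars, 8 in Iars, and at −112 and 10 in Aars, which held a pair of copies.
Tars (chr15:11399639-11399808, minus strand): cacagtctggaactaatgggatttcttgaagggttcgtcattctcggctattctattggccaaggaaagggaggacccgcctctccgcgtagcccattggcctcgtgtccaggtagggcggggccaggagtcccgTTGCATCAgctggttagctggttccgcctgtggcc
Aars (chr8:111033692-111033861, plus strand): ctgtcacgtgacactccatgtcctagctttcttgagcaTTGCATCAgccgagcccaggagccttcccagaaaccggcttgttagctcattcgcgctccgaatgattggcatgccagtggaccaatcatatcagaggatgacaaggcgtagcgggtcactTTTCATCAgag
Yars (chr4:129189753-129189922, plus strand): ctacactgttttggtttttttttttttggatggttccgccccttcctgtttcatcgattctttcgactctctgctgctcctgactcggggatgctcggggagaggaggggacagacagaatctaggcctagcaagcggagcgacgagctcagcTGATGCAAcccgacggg
Iars (chr13:49681980-49682149, plus strand): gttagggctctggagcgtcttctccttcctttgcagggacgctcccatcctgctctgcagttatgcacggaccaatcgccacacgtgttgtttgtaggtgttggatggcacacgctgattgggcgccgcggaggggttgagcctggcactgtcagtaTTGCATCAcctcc
Gars (chr6:55037851-55038020, plus strand): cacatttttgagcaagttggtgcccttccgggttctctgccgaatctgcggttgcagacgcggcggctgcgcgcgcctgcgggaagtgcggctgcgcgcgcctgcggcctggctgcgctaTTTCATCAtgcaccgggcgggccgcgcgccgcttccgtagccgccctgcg
A match describes letters in this window and is not evidence of binding.

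Per length, cytosolic synthetases were the more abundant set. The median level over 32 libraries had a midpoint of 14.2 FPKM over the 20 cytosolic genes, with a range from 4.88 (Cars) to 35.6 FPKM (Dars). Over 15 mitochondrial genes, Lars2 left out, the midpoint was 5.36 FPKM, with a range from 0.53 (Mars2) to 12.1 FPKM (Fars2). The ranges of the sets overlapped: Fars2 lay above 9 of the cytosolic genes, and Iars2, at 11.1 FPKM, above 7. Dars, Tars, Nars and Aars, which charge aspartate, threonine, asparagine and alanine tRNAs, led the cytosolic set with medians of 35.6, 31.7, 30.2 and 25.9 FPKM. Their libraries overlapped widely, and Tars alone spanned 12.5 to 76.5 FPKM. Mars2, Pars2 and Wars2, the mitochondrial methionine, proline and tryptophan enzymes, were lowest at 0.53, 0.893 and 1.45 FPKM.

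Lars2, the mitochondrial leucine enzyme (chromosome 9, 123366940 to 123462664, plus strand, GRCm38), stood apart from every other member, with a median of 268 FPKM and a range from 6.58 to 595 FPKM. Its level was 29.9 CPM in WT CD 4 h r4, 32.3 in WT KD 24 h r2 and 26.4 in KO CD 24 h r1, against 222 to 2420 CPM in the other 29 libraries. The same 3 libraries held 417 to 567 CPM of the noncoding RNA Yam1, which stood at 12700 to 61000 CPM in the others. Whether reads of Lars2 come from this gene or from a sequence shared with other RNA was not tested, and its SE in the comparisons was between 0.92 and 0.95. Lars2 was called in none of the 12 pairwise comparisons and is left out of set levels where stated.

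**Figure D1:**
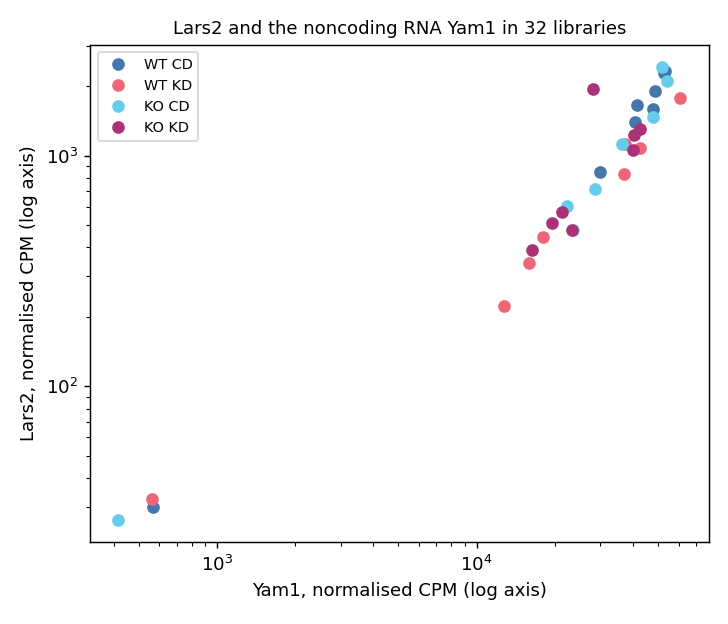
Level of Lars2 (vertical) against the noncoding RNA Yam1 (horizontal) in normalised CPM on log axes; each point is one of the 32 libraries, coloured by genotype and diet. The 3 libraries with Yam1 under 1000 CPM have Lars2 between 26.4 and 32.3 CPM, and all others have Lars2 at 222 CPM or more.

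The ketogenic diet was compared with the control diet in WT livers after the short fast. Cytosolic synthetase transcripts were lower on KD across most of the set: 17 of 20 fell, 0 rose, and 3 (Dars, Qars and Farsa) did not pass the test. Of all genes tested, 16.5% were called lower and 10.7% higher in this comparison. The mitochondrial set gave 1 gene called lower (Fars2) and 1 called higher (Mars2) of 16, shares below that background in this fit. Of the 16 values 11 were negative, and 7 had an unadjusted edgeR p under 0.05. The median fold change was −0.71 for the cytosolic set, −0.25 for the mitochondrial set and 0.03 for all genes. In 12 of the 13 amino acids with one gene in each set, the cytosolic gene had the lower fold change of the pair, with a median difference of −0.69. The mitochondrial calls depended on the fit. With only these groups fitted 5 were called (Aars2, Iars2, Mars2, Sars2 and Vars2), with 5220 of 13232 genes called in either direction. Without the libraries holding muscle transcripts 4 were called (Fars2, Mars2, Sars2 and Vars2), with 4781 of 14769 genes called.

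Tars, the cytosolic threonine enzyme (chromosome 15, 11383663 to 11399658, minus strand), had the lowest fold change of the members. In WT CD 4 h livers r1 to r4 it stood at 218, 191, 142 and 171 CPM, and in WT KD 4 h livers at 30.8, 47.6, 56.1 and 60.8 CPM. Every KD liver lay below every CD liver, and Tars fell by 1.88 ± 0.26 on the log2 scale (edgeR adjusted p = 5.12e-06), a 3.69-fold lower level. Cars, the cysteine enzyme (chromosome 7, 143557230 to 143600090, minus strand), stood at 34.7, 36.2, 34.8 and 33.5 CPM on CD and at 11, 12.5, 12.7 and 12.9 CPM on KD. The libraries of each diet lay close together and did not overlap, with a fold change of −1.50 ± 0.15 (edgeR adjusted p = 7.2e-08). Yars, the tyrosine enzyme (chromosome 4, 129189760 to 129219607, plus strand), stood at 44.1, 41.8, 41.1 and 35.7 CPM on CD and at 14.8, 18.2, 19.5 and 20.3 CPM on KD. Its groups were also apart, by −1.16 ± 0.13 (edgeR adjusted p = 3.16e-07).

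Nars, the asparagine enzyme (chromosome 18, 64499665 to 64516557, minus strand), stood at 123, 108, 108 and 125 CPM on CD and at 61.6, 67.1, 67.6 and 77.2 CPM on KD, a fall of −0.76 ± 0.14 (edgeR adjusted p = 0.000167). Sars, the serine enzyme (chromosome 3, 108424865 to 108445209, minus strand), stood at 68.0, 66.4, 68.1 and 62.9 CPM on CD and at 47.4, 42.9, 45.8 and 44.7 CPM on KD. Its fold change of −0.55 ± 0.08 (edgeR adjusted p = 2.16e-05) was smaller than that of Tars, but the spread between animals was small too. The other 12 cytosolic genes called lower ranged from −1.31 ± 0.30 for Aars (alanine; edgeR adjusted p = 0.00178) to −0.29 ± 0.10 for Kars (lysine; edgeR adjusted p = 0.0273). Among them were Iars, Lars and Mars, the isoleucine, leucine and methionine enzymes, with values between −1.03 and −0.95. The libraries of Wars, the tryptophan enzyme, overlapped between diets.

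Dars, Qars and Farsa did not pass, at 0.01 ± 0.12, −0.10 ± 0.11 and −0.25 ± 0.11 (edgeR adjusted p = 0.978, 0.538 and 0.0815). Dars stood at 74.0, 75.0, 77.3 and 80.6 CPM on CD and at 75.0, 74.0, 68.3 and 90.8 CPM on KD. Farsa and Farsb encode the partner subunits of the cytosolic phenylalanine enzyme, and Farsb was called lower at −0.60 ± 0.17 (edgeR adjusted p = 0.0099). Dars and Qars belong to the multi-synthetase complex, an assembly that holds a group of cytosolic synthetases on scaffold proteins. Of its 8 enzymes 6 were called lower, with a median of −0.62, and of the 12 cytosolic genes outside it 11 were called lower, with a median of −0.75. By catalytic class, 9 of 10 class I and 8 of 10 class II cytosolic genes were called lower.

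Mars2, the mitochondrial methionine enzyme (chromosome 1, 55237177 to 55248470, plus strand), was the member that rose. It stood at 3.10, 2.72, 4.22 and 4.79 CPM on CD and at 6.31, 7.40, 8.10 and 8.47 CPM on KD, without overlap, with a fold change of 1.03 ± 0.19 (edgeR adjusted p = 0.000262). Its cytosolic counterpart Mars went the other way in the same libraries. Fars2, the mitochondrial phenylalanine enzyme (chromosome 13, 36117411 to 36537592, plus strand), stood at 33.1, 36.8, 32.5 and 29.5 CPM on CD and at 27.5, 27.5, 23.1 and 28.6 CPM on KD. The highest KD library lay just below the lowest CD library, and the fold change was −0.31 ± 0.10 (edgeR adjusted p = 0.0241). This call was lost when WT CD 4 h r2 or any of WT KD 4 h r1, r2 or r3 was left out, with adjusted p up to 0.142 over the alternatives that lost it.

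**Figure D2:**
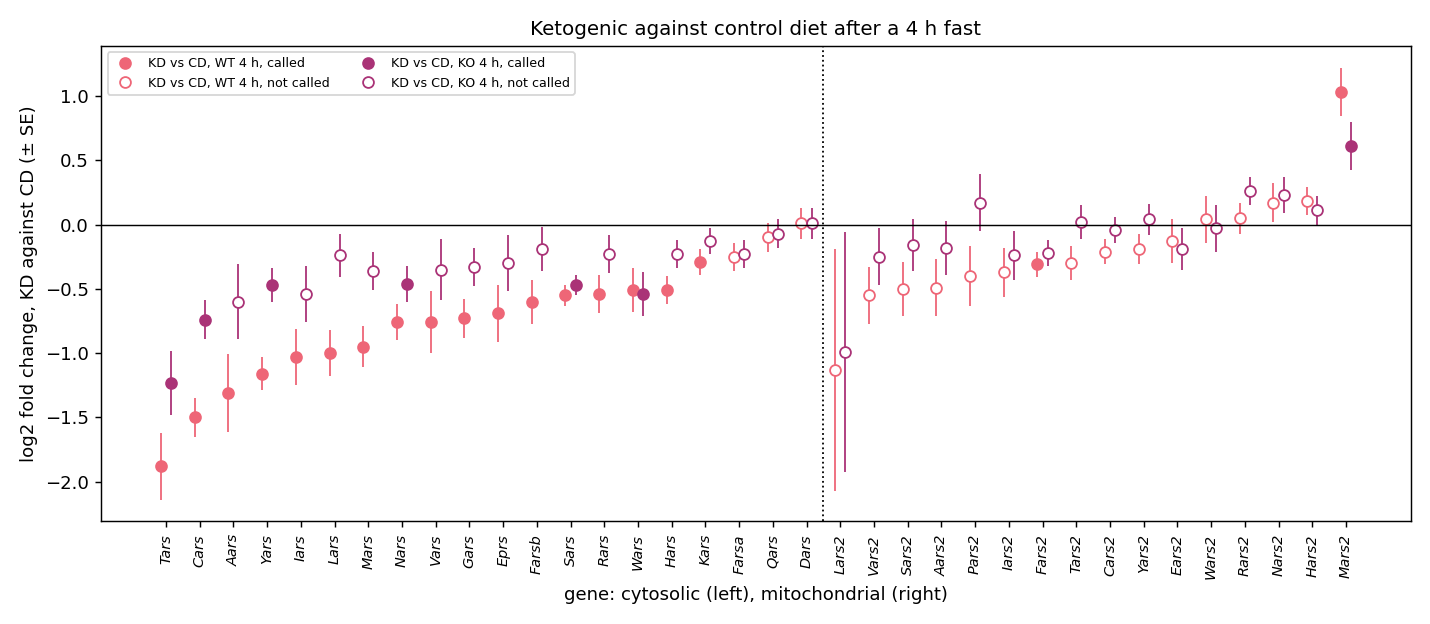
Log2 fold change of KD against CD after the 4 h fast (vertical, bars are SE) for each synthetase gene (horizontal; cytosolic left, mitochondrial right), in WT and KO livers; filled points passed an edgeR adjusted p under 0.05. In WT livers 17 cytosolic genes were called lower, from −1.88 (Tars) to −0.29 (Kars), while Mars2 was called higher at 1.03.

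All 5 genes with TGATGNAA in the promoter were among those called lower, out of 10 called cytosolic genes with a promoter in the reference, and it was present in 0 of the 3 with a promoter that were not called. Sars, Mars, Eprs, Farsb and Kars were called lower without a match in this window. Of 34 tested genes of an ATF4 and amino acid response list, 8 were called lower and 2 higher, with a median of −0.28. The shares of all genes were 16.5% lower and 10.7% higher. Among those called lower were Slc1a4, a neutral amino acid transporter (−3.30 ± 0.37), Atf5, a transcription factor related to ATF4 (−2.50 ± 0.22), and the hormone Fgf21 (−2.46 ± 0.52), with edgeR adjusted p of 3.23e-07, 8.34e-09 and 0.000905. Asns, asparagine synthetase and a textbook ATF4 target, was at −0.38 ± 0.59 (edgeR adjusted p = 0.667). Its mean level was only 1.07 CPM in WT CD 4 h and 0.835 CPM in WT KD 4 h, so a fall would be hard to detect. Atf4 itself was at −0.40 ± 0.17 (edgeR adjusted p = 0.0705). The same list was read in the fasting comparisons described below. On CD, 7 of its genes were called higher and 1 lower in WT livers, against 8.82% and 9.53% of all genes. In KO CD livers 5 were called higher and 4 lower, against 8.87% and 9.7%. In WT KD livers 7 were called higher and 0 lower, against 6.12% and 4.61%. In KO KD livers 6 were called higher and 0 lower, against 4.43% and 4.62%. The part of ATF4 in the synthetase results was not tested.

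Other parts of the translation machinery were read in the same comparison, where 10.7% of all genes were called higher and 16.5% lower. Of 83 tested cytosolic ribosomal protein genes 15 were called higher and 0 lower, with a median of 0.71. Among 8 elongation and release factors 4 were called higher, with Eef1b2, an exchange factor of elongation, at 0.96 ± 0.34 (edgeR adjusted p = 0.0355), and 1, the release factor gene Gspt1, was called lower at −0.58 ± 0.18 (edgeR adjusted p = 0.0187). Of the 3 scaffold genes of the multi-synthetase complex, Eef1e1 was called higher at 0.71 ± 0.25 (edgeR adjusted p = 0.0353). Among 10 genes of the eIF2 kinases and the eIF2B complex 4 were called lower, including the kinase gene Eif2ak3 at −0.78 ± 0.16 (edgeR adjusted p = 0.000495). Of 76 mitochondrial ribosomal protein genes 8 were called higher and 2 lower, and of 12 mitochondrial translation factor genes 1 was called higher and 2 lower. The higher calls of these mitochondrial lists were near or below the share of all genes called higher.

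Markers of other cell types were read beside this comparison. The 5 hepatocyte markers summed to 60400 to 77500 CPM in WT CD 4 h and to 29600 to 50400 CPM in WT KD 4 h, with 2 called lower and a median of −0.63. The 8 Kupffer cell markers in the table summed to 385 to 453 CPM on CD and to 468 to 634 CPM on KD, with 0 called. None of either list was at 0 over a group. Adipocyte markers summed to 0.333 to 0.966 CPM on CD and to 0.854 to 12.4 CPM on KD, with the 1 tested marker called higher. Of 6 sinusoidal endothelial markers 1 was called higher, and of 4 cholangiocyte markers 1 was called lower. The part of these markers in the synthetase result was not tested. No library of these WT groups held muscle transcripts. The diet score was built from the WT libraries, so it could not serve to check their diet. The count of members called stayed between 13 and 19 when any one of the 8 libraries was left out.

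In KO livers after the 4 h fast, 6 cytosolic synthetases fell on KD (Cars, Nars, Sars, Tars, Wars and Yars) and 0 rose. Mars2 rose and no mitochondrial gene fell. The background in this comparison was 4.6% of genes called lower and 2.44% called higher. Median fold changes were −0.34 for the cytosolic set and −0.03 for the mitochondrial set, and 19 of 20 cytosolic values were negative. In 12 of 13 amino acid pairs the cytosolic gene again had the lower value.

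Tars stood at 159, 135, 152 and 190 CPM in KO CD 4 h livers and at 98.1, 75.0, 41.7 and 55.6 CPM in KO KD 4 h livers, a fall of −1.23 ± 0.25 (edgeR adjusted p = 0.0032). Cars stood at 28.2 to 33.1 CPM in the 4 CD livers and at 25.7, 18.9, 15.2 and 12.8 CPM on KD, at −0.74 ± 0.15 (edgeR adjusted p = 0.00278). Neither gene's groups overlapped, but the KD livers were more spread than in WT, with r1 nearest to the CD animals. Sars stood at 57.4 to 65.4 CPM in the 4 CD livers and at 48.6, 45.3, 42.0 and 41.9 CPM on KD, at −0.47 ± 0.08 (edgeR adjusted p = 0.00117). Nars, Wars and Yars were at −0.46, −0.54 and −0.47 (edgeR adjusted p = 0.036, 0.0437 and 0.0253), and Mars2 at 0.61 ± 0.19 (edgeR adjusted p = 0.0486). Mars2 stood at 3.38, 4.79, 3.99 and 4.91 CPM on CD and at 6.20, 5.93, 6.42 and 7.44 CPM on KD, again with every KD animal above every CD animal. Its call was lost in 11 alternatives, with edgeR adjusted p up to 0.155. These left out any one KO CD 4 h liver, KO KD 4 h r2, r3 or r4, the filter, or the muscle, diet-shifted or low-Yam1 libraries.

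The calls of Cars, Sars and Tars were kept in KO livers whichever of the 8 libraries was left out, while the count of members moved from 7 to between 3 and 9. It was 4 without KO CD 4 h r1, r3 or KO KD 4 h r2, and 3 without KO CD 4 h r2 or r4 or KO KD 4 h r3 or r4. KO KD 4 h r4 is the library with muscle transcripts, and without all 4 such libraries the count was 4, all lower, against 3.83% of genes. The hepatocyte markers summed to 62300 to 71600 CPM on CD and to 29800 to 51300 CPM on KD, with 2 of 5 called lower. Of 6 skeletal muscle markers 1 was called higher, and of 2 tested exocrine pancreas markers 1 was called lower. The part of these markers in this result was not tested. The difference between genotypes in the diet effect at 4 h was itself tested: 0 of the 36 members passed, with 4 at an unadjusted p under 0.05. Only 0.097% of all genes were called in that test. DESeq2 called 1 member (Yars) for the same difference, with 89 of 14438 genes called. Without the muscle libraries edgeR called 1 (Cars), against 0.21% of genes in its direction.

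After the 24 h fast the diet effect was largely not detectable among the synthetases. In WT livers 0 cytosolic genes were called, with a median of −0.08, and the single call was Cars2, the mitochondrial cysteine enzyme (chromosome 8, 11514021 to 11550771, minus strand). The background was 1.29% of genes called higher and 1.45% lower. Cars2 stood at 7.78, 7.45, 8.16 and 7.63 CPM in WT CD 24 h and at 9.83, 10.7, 10.7 and 10.7 CPM in WT KD 24 h. Every KD animal lay above every CD animal, with a fold change of 0.44 ± 0.10 (edgeR adjusted p = 0.013). The call was lost without the filter on low counts and in a fit of only these 2 groups, with adjusted p up to 0.323. Stellate cell markers summed to 201 to 387 CPM on CD and to 159 to 193 CPM on KD, without overlap, with 3 of 5 called lower, and their part in the result was not tested. Cars2 shares 940 bases with Carkd on the opposite strand, and how the counting treated strand is not given in the sources used here. Without WT CD 24 h r3 there were 4 calls, all higher (Cars, Cars2, Nars2 and Wars2), with 595 of 14686 genes called in either direction. The cytosolic median in KO livers at 24 h was −0.01, and 0.28 without the muscle libraries. With all libraries edgeR called 0 members and 0% of genes higher and 0% lower in KO livers at 24 h. There 4 members had an unadjusted p under 0.05, and DESeq2 called 0 members. These groups hold KO CD 24 h r4 and KO KD 24 h r4, the libraries that lay nearer to the other diet. Without both, edgeR called 43 of 14643 genes and 0 members.

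The long fast was compared with the short fast within each genotype and diet, which asks how the synthetases followed food withdrawal. On CD, 13 of the 36 members were called lower and 1 higher after 24 h in WT livers, and 12 lower and 1 higher in KO livers. On KD, cytosolic genes were called higher at 24 h in WT livers. The 2 fasting comparisons of a genotype share no library, whereas each shares its groups with the diet comparisons above.

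**Figure D3:**
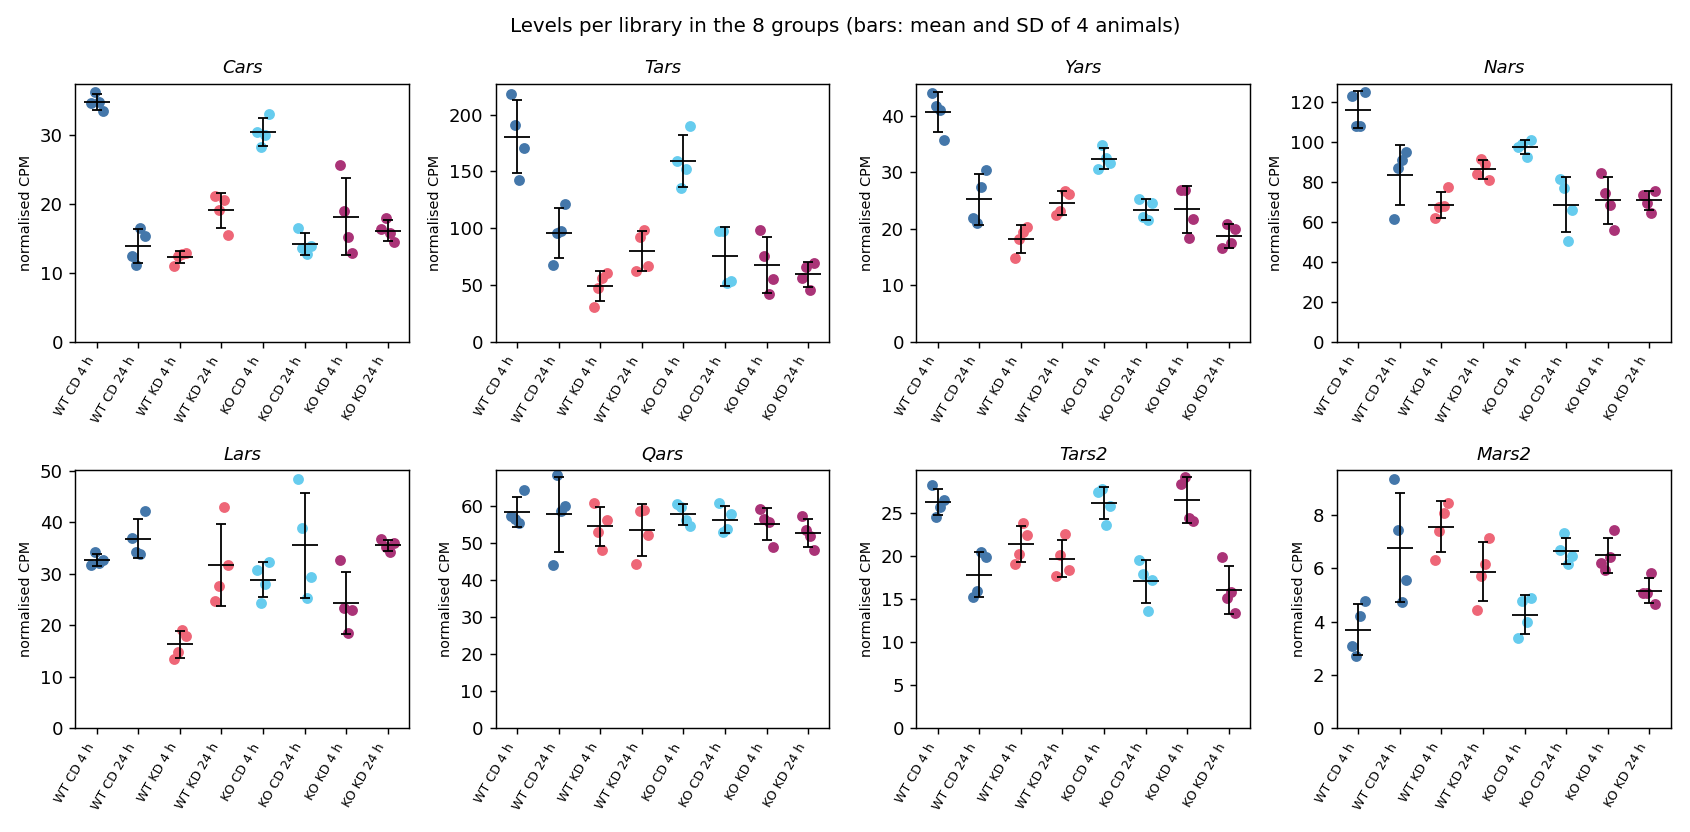
Normalised CPM (vertical, from 0) of 8 synthetase genes in the 8 groups (horizontal); points are single livers, bars the mean and SD of 4. Cars, Tars, Yars and Nars are highest in CD livers after the 4 h fast, Lars is lowest in WT KD 4 h, Qars is level across groups, and Mars2 is lowest in the CD livers after 4 h.

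In WT CD livers 6 cytosolic genes fell with the long fast (Cars, Mars, Nars, Sars, Tars and Yars), 7 mitochondrial genes fell (Aars2, Cars2, Fars2, Nars2, Tars2, Vars2 and Yars2), and Mars2 rose. The background was 9.53% of genes lower and 8.82% higher, and the medians were −0.25 for the cytosolic and −0.37 for the mitochondrial set. Cars had the lowest value, at 12.5, 11.1, 16.5 and 15.4 CPM after 24 h against 33.5 to 36.2 CPM after 4 h, a fall of −1.33 ± 0.15 (edgeR adjusted p = 4.1e-07). Yars stood at 21.9, 21.0, 27.4 and 30.4 CPM after 24 h against 35.7 to 44.1 CPM after 4 h, at −0.70 ± 0.13 (edgeR adjusted p = 0.000263). The groups of both genes were apart.

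Among the mitochondrial genes, Tars2, the threonine enzyme (chromosome 3, 95739976 to 95754977, minus strand), stood at 28.2, 24.5, 25.7 and 26.5 CPM in WT CD 4 h and at 15.2, 15.9, 20.4 and 19.8 CPM in WT CD 24 h. It was lower in every fasted animal, by −0.56 ± 0.13 (edgeR adjusted p = 0.00213). Fars2 stood at 20.7, 22.0, 23.4 and 23.9 CPM after 24 h against 29.5 to 36.8 CPM after 4 h, at −0.55 ± 0.10 (edgeR adjusted p = 0.000233). Mars2 stood at 9.35, 7.45, 4.76 and 5.55 CPM after 24 h, with r3 inside the range of the 4 h animals, and rose by 0.88 ± 0.19 (edgeR adjusted p = 0.00162). WT CD 24 h r1, which held muscle transcripts, had the lowest cytosolic set mean of its group, 4.99 log2 CPM against 5.43 to 5.55. Without that library 8 members were called (1817 of 14612 genes), and without WT CD 4 h r4, 9 were (2125 of 14697 genes). With all libraries 14 were called (2650 of 14438 genes). Tars was then at −0.77 without WT CD 24 h r1 (edgeR adjusted p = 0.0624), and its call was lost. With all libraries, 1 of 5 hepatocyte markers was called higher and 1 lower in this comparison. Among 6 sinusoidal endothelial markers 1 was called higher and 1 lower, and among 5 stellate cell markers 1 was called higher. Of 6 skeletal muscle markers 1 was called higher. The part of these markers in the result was not tested.

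In KO CD livers 7 cytosolic genes fell (Cars, Nars, Sars, Tars, Vars, Wars and Yars), 5 mitochondrial genes fell (Aars2, Fars2, Hars2, Tars2 and Vars2), and Mars2 rose, against a background of 9.7% lower and 8.87% higher. Medians were −0.39 and −0.35. Cars stood at 16.5, 13.6, 12.7 and 13.9 CPM after 24 h, all under its 4 h range of 28.2 to 33.1 CPM, at −1.10 ± 0.15 (edgeR adjusted p = 2.47e-05). Fars2 stood at 22.6, 18.3, 20.9 and 21.5 CPM against 29.5 to 38.6 CPM, at −0.71 ± 0.10 (edgeR adjusted p = 3.29e-05). Tars2 was at −0.61 ± 0.13 (edgeR adjusted p = 0.00152). Without the muscle libraries, which leaves r3 and r4 in the fasted group, 21 members were called, all lower, against 16.1% of all genes called lower in that fit, and the cytosolic median was −0.58. Leaving out KO CD 24 h r3 alone gave 8, with 1515 of 14676 genes called in either direction. Of the 8 Kupffer cell markers 3 were called lower in this comparison, with sums of 339 to 425 CPM after 4 h and 151 to 310 CPM after 24 h. Of the 5 stellate cell markers 2 were called lower, with sums of 205 to 226 and 149 to 247 CPM, and of the 6 sinusoidal endothelial markers 1 was, with sums of 222 to 247 and 173 to 196 CPM. Of 6 skeletal muscle markers 3 were called higher. The part of these markers in the result was not tested. The genotype difference in the fasting effect on CD was called for 0 members (1 at an unadjusted p under 0.05) and for 0.513% of genes. It was called for 0 members by DESeq2 and for 2 (Aars and Vars, both lower) by edgeR without the muscle libraries, where 3.93% of genes were called lower.

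In WT KD livers the long fast went with higher cytosolic transcripts: Cars, Farsa, Gars, Hars, Lars, Mars and Yars rose, 0 fell, and no mitochondrial gene was called. The background was 6.12% of genes higher and 4.61% lower. Median fold changes were 0.40 for the cytosolic set and 0.02 for the mitochondrial set, and in 12 of 13 amino acid pairs the cytosolic gene had the higher value. Lars, the leucine enzyme (chromosome 18, 42202350 to 42262122, minus strand), stood at 13.4, 14.8, 19.0 and 17.9 CPM in WT KD 4 h and at 24.7, 27.6, 42.9 and 31.7 CPM in WT KD 24 h. Every long-fasted animal lay above every short-fasted one, with a fold change of 0.96 ± 0.18 (edgeR adjusted p = 0.000599).

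Cars stood at 21.1, 19.1, 20.5 and 15.5 CPM after 24 h against 11 to 12.9 CPM after 4 h, at 0.63 ± 0.15 (edgeR adjusted p = 0.00726). Yars stood at 22.4, 23.2, 26.6 and 26.1 CPM against 14.8 to 20.3 CPM, at 0.43 ± 0.13 (edgeR adjusted p = 0.0295). Tars and Aars were at 0.71 ± 0.25 and 0.74 ± 0.29 and did not pass (edgeR adjusted p = 0.0681 and 0.11). The hepatocyte markers summed to 45900 to 67700 CPM after 24 h, against 29600 to 50400 CPM after 4 h, with 1 of 5 called higher. Stellate cell markers summed to 159 to 193 CPM after 24 h and to 230 to 281 CPM after 4 h, without overlap, with 2 of 5 called lower. Sinusoidal endothelial markers summed to 170 to 218 CPM and to 210 to 279 CPM, with 2 of 6 called lower. Of 4 cholangiocyte markers 1 was called higher. The part of these markers in the result was not tested. With all libraries but only these 2 groups fitted, 2 members were called (Cars and Lars), and without the filter 4 were. The count was 3 without WT KD 4 h r1 or WT KD 24 h r3, and 4 without WT KD 24 h r4. Cars, Hars and Lars were called in each of these, and the call of Yars was lost in all 3.

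In KO KD livers Hars and Lars rose while Cars2, Hars2 and Tars2 fell, against a background of 4.43% higher and 4.62% lower. Hars2, the mitochondrial histidine enzyme (chromosome 18, 36783008 to 36792562, plus strand), stood at 37.0, 35.2, 34.5 and 34.6 CPM in KO KD 4 h and at 27.3, 22.6, 22.8 and 25.2 CPM in KO KD 24 h, at −0.53 ± 0.11 (edgeR adjusted p = 0.00441). Its cytosolic counterpart Hars moved the other way, at 0.44 ± 0.11 (edgeR adjusted p = 0.0143). The genes of this pair lie head to head and share 198 bases on opposite strands. Tars2 stood at 28.3, 29.1, 24.4 and 24.0 CPM and at 19.9, 15.1, 15.8 and 13.4 CPM, at −0.72 ± 0.13 (edgeR adjusted p = 0.000952).

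Lars was at 0.54 ± 0.18 (edgeR adjusted p = 0.0487) and Cars2 at −0.32 ± 0.10 (edgeR adjusted p = 0.0384) in KO KD livers. The Lars call was lost without KO KD 4 h r2, r3 or r4 or any of the KO KD 24 h livers, and the Cars2 call without any one of the 8 libraries. The count was 2 without KO KD 4 h r2, and 3 without KO KD 4 h r4 or any one of the KO KD 24 h livers. Hars2 and Tars2 were called in all of these. The 8 Kupffer cell markers summed to 307 to 449 CPM after 4 h and to 182 to 306 CPM after 24 h, with 2 called lower. Sinusoidal endothelial markers summed to 187 to 282 and 150 to 195 CPM, with 2 of 6 called lower, and 1 of 5 stellate cell markers was called lower. Hepatocyte markers summed to 29800 to 51300 CPM after 4 h and to 48600 to 56700 CPM after 24 h, with 1 of 5 called higher. The 1 tested adipocyte marker was called higher. The part of these markers in the result was not tested. The genotype difference in the fasting effect on KD was called by edgeR for 0 members, with 13 at an unadjusted p under 0.05, and for 0.249% of genes. DESeq2 called 3 for it (Cars, Cars2 and Yars), all lower, with 176 of 14438 genes called. Without the muscle libraries edgeR called 4 (Aars, Cars, Cars2 and Yars), all lower, against 1.02% of genes.

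**Figure D4:**
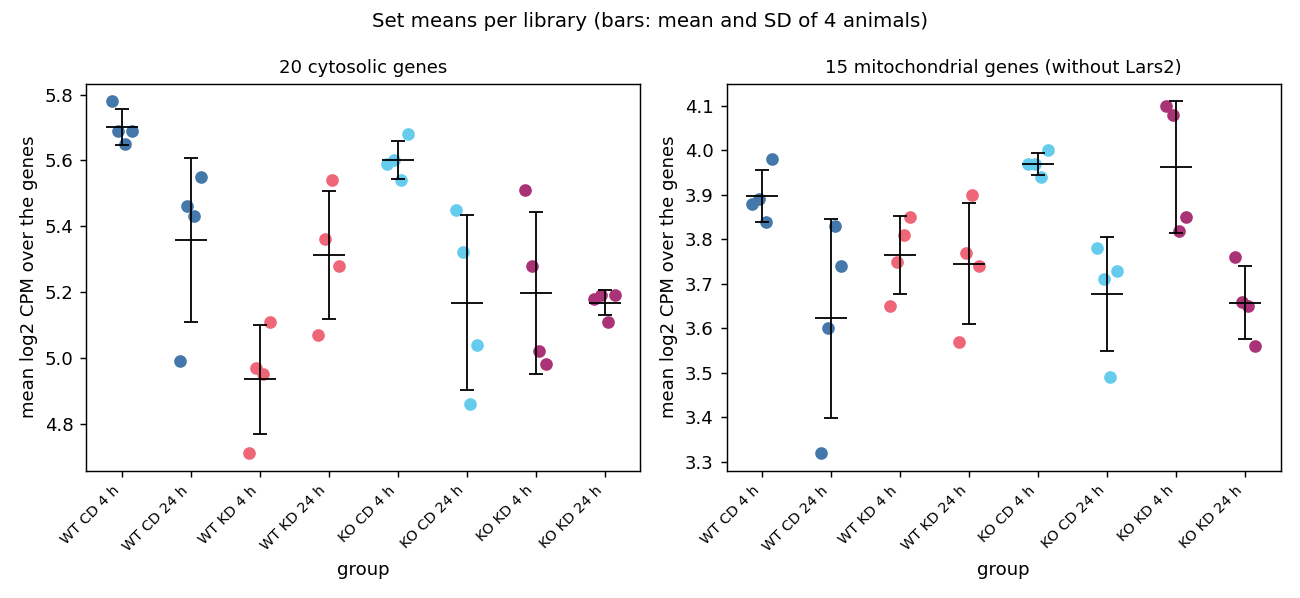
Mean log2 CPM over the 20 cytosolic genes (left) and over 15 mitochondrial genes without Lars2 (right) in each library, by group; bars are the mean and SD of 4 animals. The cytosolic mean lies between 5.65 and 5.78 in WT CD 4 h and between 4.71 and 5.11 in WT KD 4 h, and the mitochondrial mean between 3.84 and 3.98 and between 3.65 and 3.85.

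The mean over the cytosolic genes was 5.70 ± 0.0565 log2 CPM in WT CD 4 h and 4.94 ± 0.165 in WT KD 4 h (SD, n = 4), and it was 5.36 ± 0.248 and 5.31 ± 0.196 after the long fast. The mitochondrial mean without Lars2 was 3.90 ± 0.0585 and 3.77 ± 0.0897 after 4 h, and 3.62 ± 0.224 and 3.74 ± 0.136 after 24 h. The cytosolic mean exceeded the mitochondrial one by 1.71 to 1.90 in WT CD 4 h livers but by 1.07 to 1.26 in WT KD 4 h livers, so this difference did not overlap between diets. After 24 h it was 1.60 to 1.86 on CD and 1.5 to 1.64 on KD, which overlapped. In KO livers it was 1.60 to 1.69 and 1.13 to 1.41 after 4 h, and 1.32 to 1.67 and 1.43 to 1.62 after 24 h.

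Whether the fasting effect depended on diet was tested directly, as the log2 fold change with fasting on KD minus that on CD. In WT livers 9 cytosolic genes had a higher value on KD (Aars, Cars, Hars, Lars, Mars, Nars, Sars, Tars and Yars) and 0 a lower one. Among mitochondrial genes Cars2 was higher and Mars2 lower. The background was 7.56% of genes higher and 5.23% lower, and medians were 0.59 for the cytosolic and 0.32 for the mitochondrial set. Cars differed by 1.96 ± 0.22 (edgeR adjusted p = 9.25e-07): its level fell with the long fast on CD and rose on KD, so that the WT KD 24 h livers stood at 15.5 to 21.1 CPM and the WT CD 24 h livers at 11.1 to 16.5 CPM. Yars differed by 1.13 ± 0.18 (edgeR adjusted p = 0.000141). Mars2 differed by −1.24 ± 0.27 (edgeR adjusted p = 0.00255).

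In KO livers the same test called Cars, at 0.93 ± 0.21, and Sars, at 0.51 ± 0.12 (edgeR adjusted p = 0.0295 and 0.0318), with 0 members lower. The background was 0.679% higher and 0.457% lower. Sars stood at 48.3, 46.7, 50.3 and 47.5 CPM in KO CD 24 h and at 50.2, 49.0, 42.6 and 57.2 CPM in KO KD 24 h, so that the diets overlapped after the long fast. DESeq2 called 451 of 14438 genes for this difference, against 164 by edgeR. Among them were 4 members, Cars, Hars and Sars higher and Mars2 lower. Without the muscle libraries edgeR called 4, Cars, Hars, Nars and Tars, all higher, against 2.95% of genes. The Sars call was lost without the filter on low counts, without the muscle libraries and without the 2 libraries nearer to the other diet. The 3-way dependence on genotype was not tested.

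Loss of Fatp2 was compared with WT within each diet and fast. On CD after 4 h edgeR called 0 members, with 2 at an unadjusted p under 0.05 and 0 called by DESeq2, against 1.36% of genes higher and 0.457% lower. The medians were −0.11 for the cytosolic and 0.04 for the mitochondrial set. On CD after 24 h edgeR and DESeq2 called 0, with 4 at an unadjusted p under 0.05, against 0.928% higher and 1.12% lower. The cytosolic median was −0.18 there.

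That result at 24 h on CD changed when the libraries with muscle transcripts, WT CD 24 h r1 and KO CD 24 h r1 and r2, were left out together with KO KD 4 h r4. In that fit 9.95% of all genes were called lower, against 1.12% with all libraries. Then 9 cytosolic members were called lower in KO livers: Aars, Eprs, Farsa, Gars, Iars, Nars, Rars, Tars and Vars. They ranged from −1.30 for Aars (edgeR adjusted p = 0.00234) to −0.39 for Farsa (edgeR adjusted p = 0.0436), with Eprs, the fused glutamate and proline enzyme, at −0.91 (edgeR adjusted p = 0.00884). The cytosolic median was then −0.46, and the mitochondrial median was −0.16 against 0.02 with all libraries. With all libraries, 6 of the 8 Kupffer cell markers were called lower in KO, with sums of 151 to 310 CPM against 287 to 1030 CPM in WT, and their part in the result was not tested. This leaves KO CD 24 h r3 and r4, and r4 is the CD library that lay nearer to KD. Aars stood at 182, 159, 60.9 and 93.6 CPM in KO CD 24 h r1 to r4, and at 68.7, 156, 199 and 216 CPM in WT CD 24 h r1 to r4. The libraries with muscle transcripts were thus high in KO and low in WT, and their part in the result was not tested beyond leaving them out.

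On KD after 4 h Cars was higher in KO livers, at 25.7, 18.9, 15.2 and 12.8 CPM against 11, 12.5, 12.7 and 12.9 CPM in WT livers, by 0.56 ± 0.15 (edgeR adjusted p = 0.0368). KO KD 4 h r4 lay inside the WT range. It was 1 of 20 cytosolic genes called higher, with 0 of 16 mitochondrial genes, against 1.79% of genes higher and 0.942% lower. The medians were 0.29 for the cytosolic and 0.28 for the mitochondrial set, against −0.004 for all genes, and 33 of 36 values were positive. The cytosolic set mean was 5.51 and 5.28 log2 CPM in KO KD 4 h r1 and r2, above the WT KD 4 h range of 4.71 to 5.11. In r3 and r4 it was 5.02 and 4.98, inside that range. The Cars call was lost without any one of the WT KD 4 h livers or without KO KD 4 h r1 or r2. Without KO KD 4 h r3 the count was 4 (Cars, Lars, Mars and Yars), all higher, with 420 of 14689 genes called in either direction. Without the muscle libraries it was 4 (Cars, Farsb, Lars and Mars), all higher, against 3.75% of genes.

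On KD after 24 h Cars2 was lower in KO livers. It stood at 7.77, 7.35, 6.63 and 7.89 CPM against 9.83, 10.7, 10.7 and 10.7 CPM in WT livers, without overlap, and fell by 0.50 ± 0.10 on the log2 scale (edgeR adjusted p = 0.0031). No cytosolic gene was called, and the background was 1.96% higher and 1.89% lower. The Cars2 call held without any one library, and was lost in a fit of only these 2 groups (edgeR adjusted p = 0.062). Of the 8 Kupffer cell markers 5 were called lower in the same comparison, with sums of 182 to 306 CPM in KO and 383 to 622 CPM in WT. The 1 tested adipocyte marker was called higher. The part of these markers in the result was not tested. The dependence of the diet effect on genotype after 24 h was called by edgeR for 0 members, with 2 at an unadjusted p under 0.05, and for 0.0139% of genes. DESeq2 called Cars2 for it, with 59 of 14438 genes called.

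Over the 12 pairwise comparisons 9 members were never called: Dars and Qars of the cytosolic set and Ears2, Iars2, Lars2, Pars2, Rars2, Sars2 and Wars2 of the mitochondrial set. Qars, the glutamine enzyme, kept the narrowest range of fold changes among these, from −0.11 to 0.01. Ears2 charges mitochondrial tRNAs of both glutamate and glutamine, since the matrix forms glutaminyl-tRNA by transamidation, and ranged from −0.29 to 0.35. Cars was called in 8 of the 18 pairwise comparisons and tests of dependence, Sars and Yars in 6 each, and Cars2, Mars2, Nars and Tars in 5 each. The share of all genes never called, or called as often, was not counted, so these counts have no background. The 18 tests reuse the same 8 groups, so repeated calls of a gene are not independent.

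**Figure D5:**
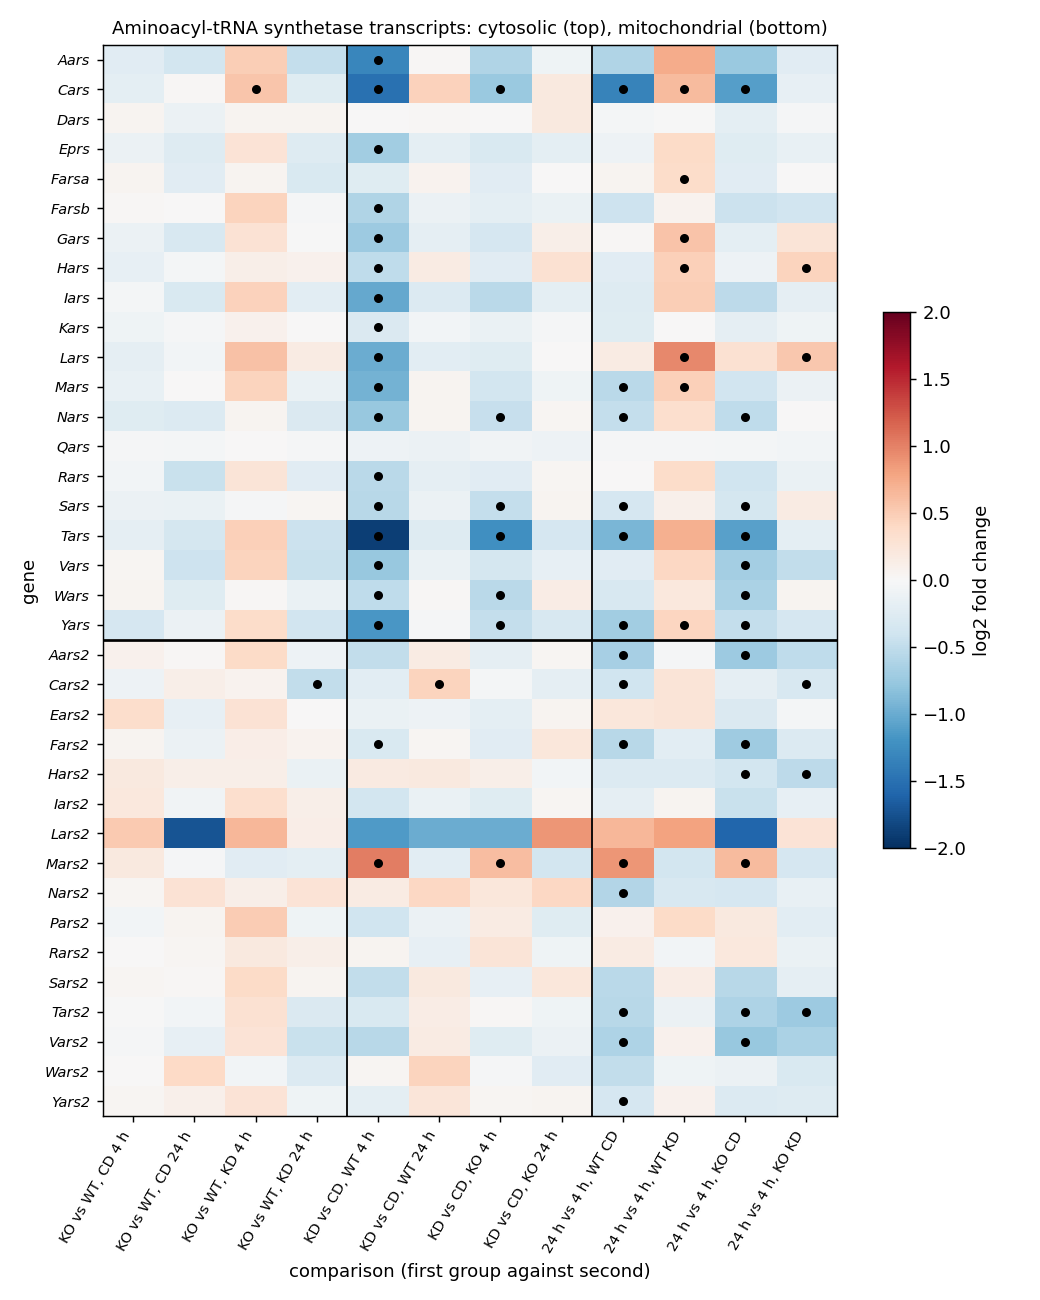
Log2 fold change (colour, from −2 to 2) of the 36 synthetase genes (rows; cytosolic above the line, mitochondrial below) in the 12 pairwise comparisons (columns); black dots mark an edgeR adjusted p under 0.05. The column of KD against CD in WT livers after 4 h holds 17 dots above the line and 2 below it, Fars2 lower and Mars2 higher.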

How the data were processed

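Read counts per gene were deposited by the authors for 32 libraries, 1 per animal, next to FPKM values. The submitters' processing notes name TopHat2 2.0.12 and Bowtie2 2.2.3 for alignment, HTSeq 0.6.1 for counting and the mouse build GRCm38 (mm10). Neither the annotation release nor the strand setting is stated, so overlapping genes on opposite strands may share reads. The deposited FPKM equalled the count divided by length and total count in 100% of nonzero values, within 0.1%, and served for levels between genes. Total counts of 13406678 to 24700310 set the depth.

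Counts were tested with edgeR 4.0.16 in R 4.3.3 (TMM, filterByExpr, robust quasi-likelihood fit, 8 group means, 24 residual degrees of freedom, common biological coefficient of variation 0.235), two-sided, after tests on simulated data. The SE restates the test's F statistic. CPM used the TMM library sizes, and log2 CPM a prior count of 2. There were 12 pairwise comparisons and 6 tests of dependence. Set means and medians are described without a test. Alternatives were RLE normalization, no filter, DESeq2 1.42.0, only the groups compared, libraries left out singly, and the muscle, diet-shifted and low-Yam1 libraries left out, the last chosen after seeing the data. Leaving Lars2 out of the mitochondrial set was also chosen after seeing the data.

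Members and gene lists were chosen with earlier results of these data known. Values in every library are given for up to 6 members per factor (genotype, diet, fasting), those called in the most of its 4 comparisons, ties by smallest p, and for up to 2 members called per test of dependence. Members with the extreme fold changes of a comparison, and up to 4 called genes of a related list, may also be named. Libraries of Aars, Dars and Lars2 and the values of Asns and Atf4 were added after their values were seen.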

Additional observations from a re-analysis of the deposited data

Results flagged for a closer look

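In 4 of 112 groups of 4 animals looked at, 1 animal lay far from the other 3 by Dixon's criterion, which chance gives in about 1 of 20 groups. Cars2 in WT KD 24 h r1 was at 3.31 log2 CPM, against 3.43 to 3.44 in the others. Lars2 in WT CD 4 h r4 was at 4.91 log2 CPM, against 10.45 to 10.69, in a library that also held little Yam1. The same library had a mitochondrial set mean of 4.04 log2 CPM with Lars2 included, against 4.27 to 4.31. The cytosolic set mean of KO KD 24 h r3 was 5.11 log2 CPM, against 5.18 to 5.19.

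The fasting effect differed between diets in WT livers for 11 members by the edgeR test of that difference. On the log2 scale, KD minus CD, it was 1.96 for Cars, 1.63 for Tars, 1.34 for Aars, 1.13 for Yars, 1.01 for Mars, 0.81 for Nars, 0.79 for Lars, 0.68 for Hars, 0.65 for Cars2, 0.43 for Sars and −1.24 for Mars2. In KO livers it was 0.93 for Cars and 0.51 for Sars.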

How the results depend on the processing

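No paired analysis was possible because the replicate numbers only name animals in accession order. The count of members called for KD against CD in WT livers at 4 h stayed between 16 and 21 under the alternatives (19 as reported) and between 13 and 19 with 1 library left out. Other counts moved by over 1.5 times. Without the muscle libraries they were 9 for KO against WT on CD at 24 h (0 as reported), 4 on KD at 4 h (1), 4 for diet in KO at 4 h (7), 21 for fasting in KO on CD (13) and 22 over the 6 tests of dependence (13). Without the filter they were 0 for KO against WT on KD at 4 h, 0 for diet in WT at 24 h, 4 for diet in KO at 4 h, 4 for fasting in WT on KD (7) and 3 in KO on KD (5). With only the groups compared, they were 0 for genotype on KD at 4 h and at 24 h, 0 for diet in WT at 24 h, 6 for fasting in WT on CD (14) and 2 in WT on KD. DESeq2 gave 2 for genotype on KD at 4 h and 20 for the tests of dependence. It also called more of all genes, with 662 against 394 by edgeR for genotype on KD at 4 h. Fasting in WT on CD gave 8 without the low-Yam1 libraries, and fasting in KO on KD gave 3 without the diet-shifted libraries. The cause of these shifts was not tested, except that fewer libraries enter some of these fits.

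With 1 library left out the counts ranged from 0 to 4 for genotype on KD at 4 h, 1 to 4 for diet in WT at 24 h, 3 to 9 in KO at 4 h, and for fasting 8 to 16 in WT on CD, 3 to 10 in WT on KD, 8 to 19 in KO on CD and 2 to 6 in KO on KD. They stayed at 0 for genotype on CD at both times and for diet in KO at 24 h, and at 1 for genotype on KD at 24 h. The number of all genes called moved in these fits too, from 1515 to 3404 for fasting in KO on CD, for example. Of the values of named members, 316 of 354 under other alternatives and 280 of 336 with 1 library left out kept their call and direction. The others lost the call, and 0 changed direction. Of 372 set medians under the alternatives, 4 moved beyond the spread between animals, all without the muscle libraries: the cytosolic ones for KO against WT on CD at 24 h (−0.46), diet in KO at 24 h (0.28) and fasting in KO on CD (−0.58), and the mitochondrial one for KO against WT on CD at 24 h (−0.16). The cytosolic median for KD against CD in WT at 4 h ranged from −0.83 to −0.60, and the mitochondrial one from −0.31 to −0.18.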
